A study of Mus musculus with 15 samples.

Results

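The receptor tyrosine kinase *Ret*, its co-receptors *Gfra1*, *Gfra2* and *Gfra4* and the ligands *Gdnf* and *Artn* were followed in Mouse Embryonic Fibroblasts (MEFs) across 5 culture conditions. The 6 genes were chosen by name, and the set was selected on the measured difference of *Ret* between TGFß1 and control on these same arrays. They were found by the RefSeq transcripts of their probes, which gave 10 of the 56605 distinct probes, for 6 of 23462 named genes. MEFs are fibroblasts grown from mouse embryos, and those used here were the established line Balb/c/3T3 clone A31, so that every array comes from 1 clone. RNA was measured on 15 one-color microarrays in groups of 3. Cultures were left untreated (control) or received 1 cytokine. TGFß1, a driver of matrix production, was given at 5 ng/ml. The inflammatory cytokines TNFα and IL-1β were given at 10 and 1 ng/ml. IL-6, at 20 ng/ml, was added with its soluble receptor sIL-6Rα, at 25 ng/ml, and this pair is called IL-6 from here on. The labels give the culture time as 24 or 72 h for the whole series, the study's methods give 24 h for the arrays of control, TNFα and TGFß1, and the time of the IL-1β and IL-6 arrays is not given in the sources used here. Arrays are named by their group and label number, and the 3 arrays of a group are described as independent experiments for control, TNFα and TGFß1. For IL-1β and IL-6 nothing says whether cultures were separate, so the spread between their arrays may be technical. Their p-values rest on a spread between arrays that is pooled over all 5 groups, and do not measure the spread between separate IL-1β or IL-6 cultures.

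Ligands of the GDNF family signal through a shared receptor. A ligand dimer binds a GFRα co-receptor, which is held to the membrane by a lipid anchor, and the complex then brings Ret molecules together so that their kinase domains phosphorylate each other. Each co-receptor has a preferred ligand: GFRα1 binds GDNF, GFRα2 binds neurturin, GFRα3 binds artemin and GFRα4 binds persephin. The system is best known from the developing kidney, where mesenchyme secretes GDNF toward Ret-bearing epithelium of the ureteric bud, and from the enteric nervous system, and fibroblasts are not among its classic Ret-bearing cells.

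A RefSeq promoter window (build GRCm38.p6) was found for *Gdnf*, *Gfra1*, *Gfra4* and *Artn*, and none is listed for *Ret* and *Gfra2*. The 250 bases before the first annotated start of *Gdnf* are shown, as *Gdnf* was called higher with both TNFα and IL-6. They lie at chr15:7809798-7810047 on the plus strand, upstream of the gene body, and capitals mark a match to CAGAC, the core of the SMAD binding element, here read on the minus strand.
Gdnf promoter: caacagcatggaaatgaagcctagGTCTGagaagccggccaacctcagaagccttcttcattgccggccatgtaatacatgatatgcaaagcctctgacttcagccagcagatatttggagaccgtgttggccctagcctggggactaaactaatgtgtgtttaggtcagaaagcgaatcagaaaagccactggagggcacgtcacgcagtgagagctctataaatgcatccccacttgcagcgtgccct
Matches to CAGAC, to the AP-1 letters TGANTCA, to the STAT letters TTCNNNGAA and to the NF-κB consensus were searched on both strands. The CAGAC match began 226 bases before the start, and no match to the other 3 motifs was present in this window or, for any of the 4 motifs, before the second annotated start of *Gdnf*. The window of *Gfra1* held a CAGAC match 246 bases before the start and an NF-κB match, GGGACACCCC, 134 bases before it. *Artn* held a CAGAC match 98 bases before its start, and the second start of *Gfra4* had an NF-κB match 47 bases and an AP-1 match 34 bases before it. No matches of different motifs overlapped. Of all 32851 windows of this length, 42.2% held CAGAC, 6.7% the AP-1 letters, 7.0% the STAT letters and 7.3% the NF-κB consensus. These matches describe letters in a window and do not show that a factor binds there.

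Levels are given as the log2 processed signal minus the 75th percentile of the array, so that 0 is the 75th percentile of its probes. They can be compared between arrays for 1 probe, but not between probes. The scanning software marks spots that are well above background, which was the case for 48.3% to 54.9% of all probes per array, and the 75th percentile of the signal lay between 325 and 445. The arrays sat on 2 slides, each with arrays of all 5 groups, and several values are also given with the slide in the model. The TGFß1 response genes *Smad7*, *Ccn2* and *Skil* rose with TGFß1 (2.88-fold to 8.45-fold), all 4 NF-κB response genes rose with both TNFα and IL-1β (*Nfkbia*, *Tnfaip3*, *Ccl2* and *Cxcl1*), and *Socs3* and *Bcl3* rose with IL-6 (5.25-fold and 3.14-fold). The 10 fibroblast markers examined, among them *Col1a1* and *Vim*, were well above background on all 15 arrays.

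*Ret* was close to the floor of the array in 4 groups and well above background in the fifth. Its single probe (A_55_P2160676, transcript NM_001080780) had processed signals of 290, 343 and 280 on the arrays TGFß1 2, 7 and 12. On the 12 other arrays the signal lay between 2.74 and 6.22, and none of them was well above background. As log2 levels, the TGFß1 arrays stood at -0.31, -0.01 and -0.44, and the control arrays 1, 6 and 11 at -6.28, -7.21 and -6.52. The arrays of TNFα (-6.97, -6.73 and -7.11), IL-1β (-7.14, -7.14 and -6.99) and IL-6 (-6.90, -6.74 and -6.14) fell in the same low range as the controls. Every TGFß1 array therefore lay above every other array. The 12 other arrays were all below background, so no order is read among their 4 groups.

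With no control array above background, the change of *Ret* has only a lower bound: its level was at least 23.7-fold higher with TGFß1 than in controls. The fitted difference of the means was 6.42 on the log2 scale (SE 0.24, n = 3 and 3), from -6.67 ± 0.48 (SD) to -0.25 ± 0.22 (SD). It was 6.39 among arrays of slide 1 and 6.83 among arrays of slide 2. After normexp background correction, which raises dim signals by an offset, the same difference was 2.64, so the bound holds only for the deposited signals. These values are a description with no test, since this rise led to the choice of the gene set.

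**Figure D1:**
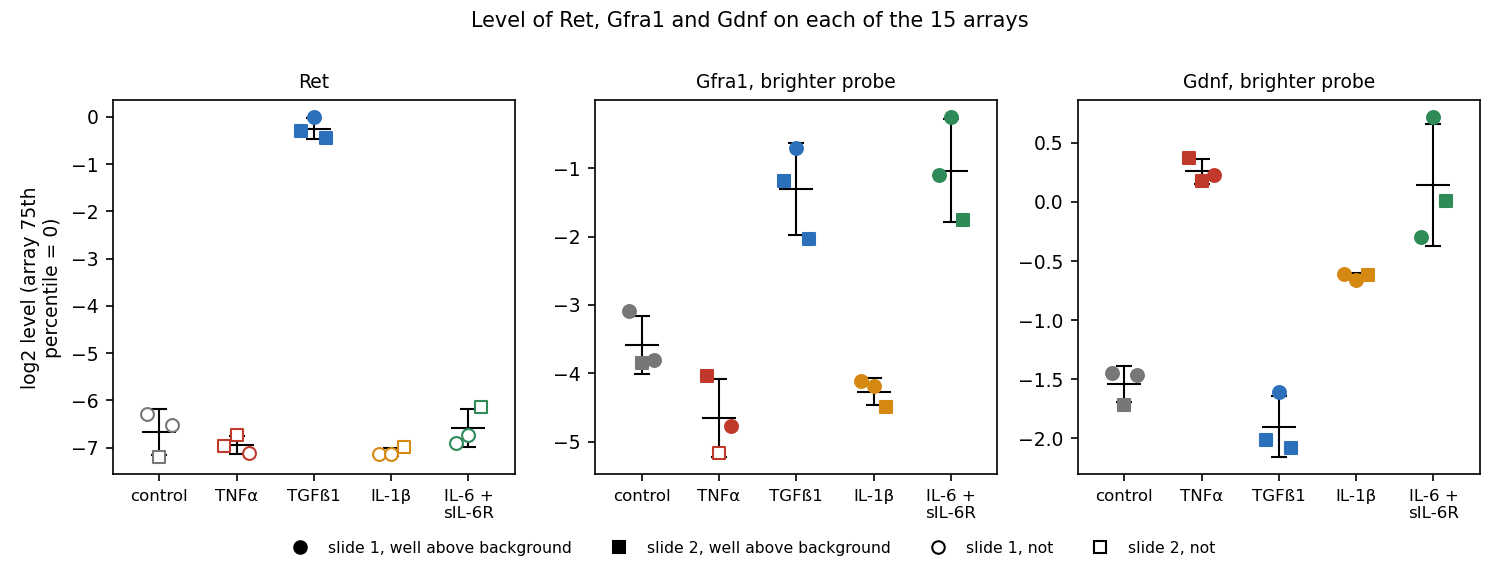
Log2 level (vertical axis, array 75th percentile = 0) of *Ret*, *Gfra1* (brighter probe) and *Gdnf* (brighter probe) on each of the 15 arrays by group (horizontal axis). Circles are arrays of slide 1 and squares of slide 2, filled symbols are well above background, and bars are the group mean ± SD (n = 3). *Ret* is filled on the 3 TGFß1 arrays alone, *Gfra1* is highest with TGFß1 and IL-6, and *Gdnf* is highest with TNFα and IL-6.

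Since *Ret* is a marker of neural crest and epithelial cell types, their markers were examined beside it. Of the 10 markers of autonomic or enteric neurons, *Th*, *Elavl4*, *Tubb3* and *Stmn2* were above background on all 15 arrays, and *Phox2a*, *Hand2* and *Prph* on none. With TGFß1, *Th*, *Elavl4*, *Tubb3* and *Stmn2* differed from control by 0.40, 0.77, 0.73 and -2.26 on the log2 scale. On TGFß1 arrays 4 of the 10 were above background on all 3 and 6 on none. The summed level of the list (as a multiple of the 75th percentile) was 0.617 to 2.13 on TGFß1 arrays and 0.887 to 2.40 on control arrays. Of the 8 markers of Schwann cells or enteric glia, 3 were above background on all TGFß1 arrays (*Gfap* and *Mbp* among them, *Mbp* on no control array). On no TGFß1 array were 5 above background, *Sox10*, *Erbb3* and *S100b* among them. *S100b* went the other way from *Mbp*: it was above background on all 3 control arrays and on no TNFα or TGFß1 array. The sums were 0.450 to 0.544 with TGFß1 and 0.549 to 0.749 in controls. Of the 8 epithelial markers, 3 were above background on all TGFß1 arrays and 3 on none. *Cldn7* was above background on all 15 arrays and *Cdh1* on none. *Krt8* was above background on all 3 TGFß1 arrays and on no control array, *Krt18* on all 3 and on 2 control arrays, and *Epcam* on 1 and on none. The summed epithelial level was 0.356 to 0.772 with TGFß1 and 0.240 to 0.303 in controls. Its part in the *Ret* value was not tested. In such bulk RNA, more cells with a transcript and more transcript per cell cannot be told apart.

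*Gfra1*, which encodes the co-receptor that presents GDNF to Ret, stood higher with TGFß1 and with IL-6 than in controls. Its brighter probe (A_52_P311022, NM_010279) stood at -3.09, -3.86 and -3.81 on the control arrays, at -1.18, -0.69 and -2.03 on the TGFß1 arrays 2, 7 and 12, and at -1.09, -0.25 and -1.75 on the IL-6 arrays 3, 8 and 13. Each of these 6 treated arrays lay above each control array, as was the case for 19.9% of all probes tested with TGFß1 and 2.57% with IL-6, and the TGFß1 and IL-6 groups overlapped. With TNFα the levels were -4.04, -5.17 and -4.77, with array 9 not well above background, and with IL-1β they were -4.12, -4.19 and -4.50. All 6 of these arrays lay below the lowest control array, as did 15.8% of all probes tested with TNFα and 2.17% with IL-1β. From high to low the order of the means was IL-6, TGFß1, control, IL-1β and TNFα, where IL-6 and TGFß1 differed by 0.27 (pooled SD 0.72) and IL-1β and TNFα by 0.39 (pooled SD 0.43).

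The difference of the brighter *Gfra1* probe between IL-6 and control was 2.55 on the log2 scale (SE 0.42, 5.86-fold, higher in 3 of 3 arrays), with an adjusted p of 0.0563 by limma, which missed the threshold of 0.05. With the slide in the model the difference was the same and the adjusted p was 0.0248, in a fit that called 0.109% of all probes higher. It was 2.78 among arrays of slide 1 and 2.10 among arrays of slide 2. The dimmer probe (A_52_P398998, same transcript) was above background on the 6 TGFß1 and IL-6 arrays and on none of the other 9. It was tested only through these groups where it was high, which include the IL-6 group compared here. Its levels with IL-6 were -3.15, -2.06 and -3.63, its control levels were -5.48, -6.04 and -5.36, and it was called at least 3.65-fold higher (limma, adjusted p = 0.0498, n = 3 and 3). That value lay just under the threshold, and it was 0.115 with no filter on dim probes (limma). The call was lost in 13 of 16 alternative settings that gave a test, with adjusted p from 0.0123 to 0.518. Leaving out control 1, 6 or 11 or IL-6 3 or 8 each ended it. The bound of 3.65-fold holds only for the deposited signals. After normexp background correction the difference of this dimmer probe was 0.68 on the log2 scale. Both probes were measured on the same RNA, and their levels had a Pearson's r of 0.966 over the 15 arrays, as 2 readings of 1 transcript.

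With TGFß1, *Gfra1* stood 2.28 higher on the log2 scale than in controls (SE 0.42, 4.86-fold) on the brighter probe and at least 2.77-fold higher on the dimmer one, given as a description with no test. After normexp correction the dimmer probe was 0.58 higher, so its bound holds only for the deposited signals. The brighter probe was 2.75 higher among arrays of slide 1 and 2.25 higher among arrays of slide 2, and 1.34 higher after normexp correction. With TNFα its difference was -1.07 (SE 0.42, lower in 3 of 3 arrays, limma adjusted p = 0.121), and with slide and run of label numbers in the model it was -0.94 with an adjusted p of 0.0468, in a fit that called 7.74% of all probes lower. With IL-1β the difference was -0.68 (SE 0.42, lower in 3 of 3 arrays), with a limma 95% interval from -1.59 to 0.22 and an adjusted p of 1.00. Without those terms the TNFα difference did not pass the test, and the IL-1β difference passed neither without nor with them (adjusted p = 0.365).

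*Gdnf*, the ligand that GFRα1 presents to Ret, rose with TNFα and with IL-6. Its brighter probe (A_55_P2045896, NM_010275) was well above background on all 15 arrays. The control arrays stood at -1.44, -1.72 and -1.46, the TNFα arrays 4, 9 and 14 at 0.38, 0.17 and 0.23, and the IL-6 arrays 3, 8 and 13 at -0.30, 0.72 and 0.01. The IL-1β arrays, at -0.61, -0.66 and -0.62, lay between the controls and these 2 groups with no overlap. Arrays of a group all above the controls were found for 13.1% of all probes tested with TNFα, 3.15% with IL-1β and 2.57% with IL-6. The TGFß1 arrays, at -2.02, -1.61 and -2.08, overlapped the controls. From high to low, TNFα and IL-6 did not differ beyond their spread (0.12, pooled SD 0.38), IL-1β and control followed, and TGFß1 was lowest, with a difference from control of 0.36 (pooled SD 0.21).

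The level of *Gdnf* rose by 1.80 on the log2 scale with TNFα (SE 0.21, 3.48-fold, limma adjusted p = 0.000167). It was the 1 member probe of 6 tested that was called higher with TNFα, where 4.09% of all 29334 probes tested were, and no member probe was called lower, against 5.96% of all probes. Among the 6, *Ret* and the dimmer *Gfra1* probe were below background on all control and TNFα arrays, so nothing is read from their lack of a call. At an unadjusted p under 0.05, 1 member probe was lower with TNFα, the brighter *Gfra1* probe. The share of all probes at that unadjusted threshold is not given, so nothing is read from this count. With IL-6, *Gdnf* rose by 1.68 (SE 0.21, 3.21-fold, limma adjusted p = 0.0119). It was 1 of 2 member probes called higher with IL-6, beside the dimmer *Gfra1* probe, in a comparison where 17 probes or 0.0580% of those tested were called higher. That *Gfra1* probe was tested only through the TGFß1 and IL-6 arrays. *Ret*, below background on all control and IL-6 arrays, was tested only through TGFß1. Without the array control 1 or control 6 the adjusted p of *Gdnf* with IL-6 was 0.0580 and 0.0675, at rises of 1.73 and 1.60. Both rises of *Gdnf* were present on each slide: with TNFα 1.68 and 1.99, and with IL-6 1.66 and 1.73, on slides 1 and 2.

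With IL-1β, *Gdnf* was 0.91 higher on the log2 scale (SE 0.21, 1.88-fold, higher in 3 of 3 arrays), with a limma 95% interval from 0.45 to 1.38. The adjusted p was 0.186 and the unadjusted p 0.00103 (limma), so this difference did not pass the test. No member probe of 6 was called with IL-1β by limma, where 0.228% of all probes were called higher and 0.00341% lower. *Gdnf* was the only member probe with an unadjusted p under 0.05, a threshold for which the share of all probes is not given. Here too *Ret* and the dimmer *Gfra1* probe were below background in both groups, and nothing is read from their lack of a call. In the comparison of TGFß1 with control, *Gdnf* differed by -0.36 (SE 0.21), given with no test. Of the 6 member probes tested, 3 had every TGFß1 array above every control array (*Ret* and both probes of *Gfra1*), in a comparison where 19.9% of all probes did, 7.51% were called higher and 10.4% were called lower. Nothing is read from that share.

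The second probe of *Gdnf* (A_55_P2745662, same transcript) was not well above background on any array and was not tested. Its levels were -4.64, -6.003 and -5.17 with TNFα and -5.06, -4.56 and -5.77 with IL-6. Those of the controls were -7.28, -7.17 and -6.43, and lay below all 6 of these arrays. No fold is given below background. Over the 15 arrays its r with the brighter probe was 0.853.

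**Figure D2:**
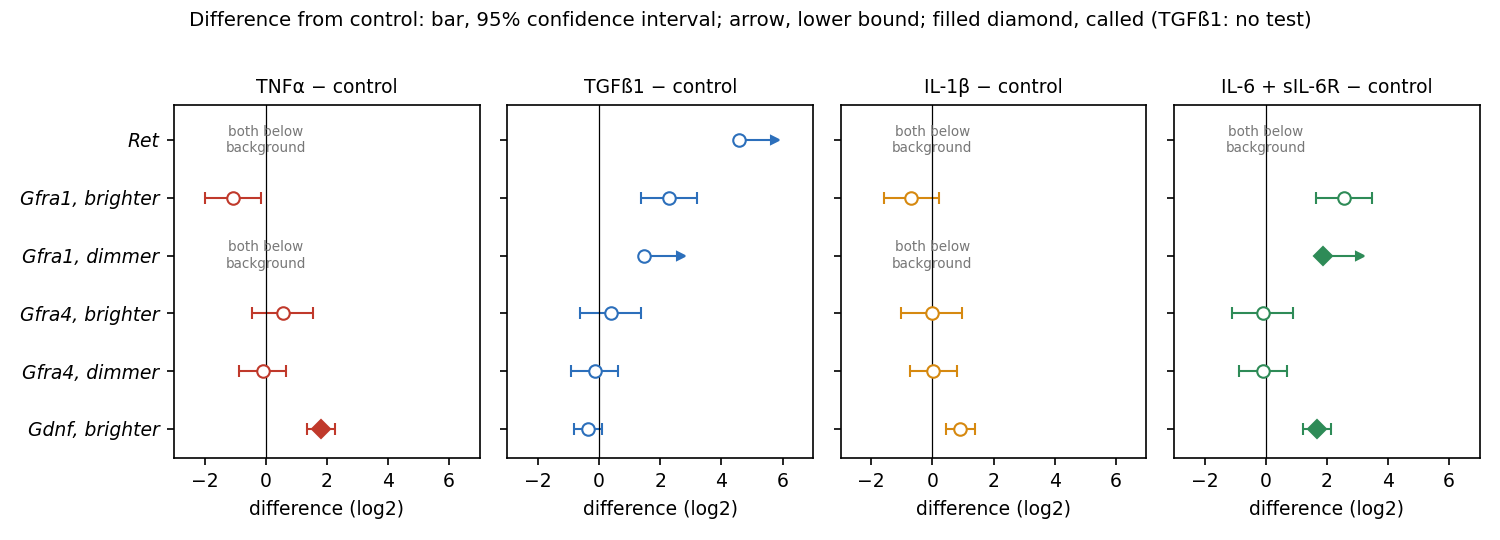
Difference from control on the log2 scale (horizontal axis) for the 6 member probes tested (vertical axis), with 1 panel for each treatment. Bars are 95% confidence intervals of the limma fit, arrows start at a lower bound where no control array was above background, filled diamonds were called (adjusted p under 0.05 and at least 1.5-fold), and TGFß1 values have no test. *Gdnf* was called with TNFα and IL-6, the dimmer *Gfra1* probe was called with IL-6, and the *Gfra4* intervals all span 0.

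*Gfra4*, which encodes the persephin co-receptor, was the only other member tested, and neither of its probes passed the test with TNFα, IL-1β or IL-6 (limma). Its brighter probe (A_55_P2039196, NM_001271002) was well above background on all arrays, with control levels of 3.42, 4.88 and 3.90. Its differences from control were 0.56 (SE 0.46, 95% interval from -0.43 to 1.56) with TNFα, 0.38 with TGFß1 (no test), -0.03 with IL-1β and -0.10 with IL-6. Levels split by slide in every group: the 8 arrays of slide 1 lay between 3.42 and 3.90 and the 7 arrays of slide 2 between 4.59 and 5.02. With the slide in the model the SE was 0.13, the TNFα difference 0.22 (adjusted p = 0.272) and the TGFß1 difference 0.036. The dimmer probe (A_55_P2039190, NM_020014) lay between -3.71 and -2.41 on all 15 arrays, with differences from control between -0.15 and 0.03 that overlapped the controls in every group. Within every group its slide 2 arrays also stood above its slide 1 arrays. With the slide in the model its differences were -0.36 with TNFα (SE 0.15, limma adjusted p = 0.109) and -0.41 with TGFß1 (no test). Among arrays of slides 1 and 2 they were -0.33 and -0.41 with TNFα and -0.47 and -0.40 with TGFß1. The smallest adjusted p of *Gfra4* in any of the settings tried was 0.0905, for the dimmer probe with TNFα.

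*Gfra2*, the neurturin co-receptor, and *Artn*, the ligand artemin, were not tested, because no group had all its arrays above background. One *Gfra2* probe (A_66_P104099, NM_008115) was well above background on the array TNFα 4 alone, with a signal of 115 there and of 2.57 to 4.56 on the other 14 arrays. The second *Gfra2* probe (A_55_P1968703, same transcript) had a signal of 2.79 on that array and was above background on none. *Artn* (A_55_P1978241, NM_001284192) had signals between 3.74 and 16.7 and was above background on the array IL-1β 10 alone.

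**Figure D3:**
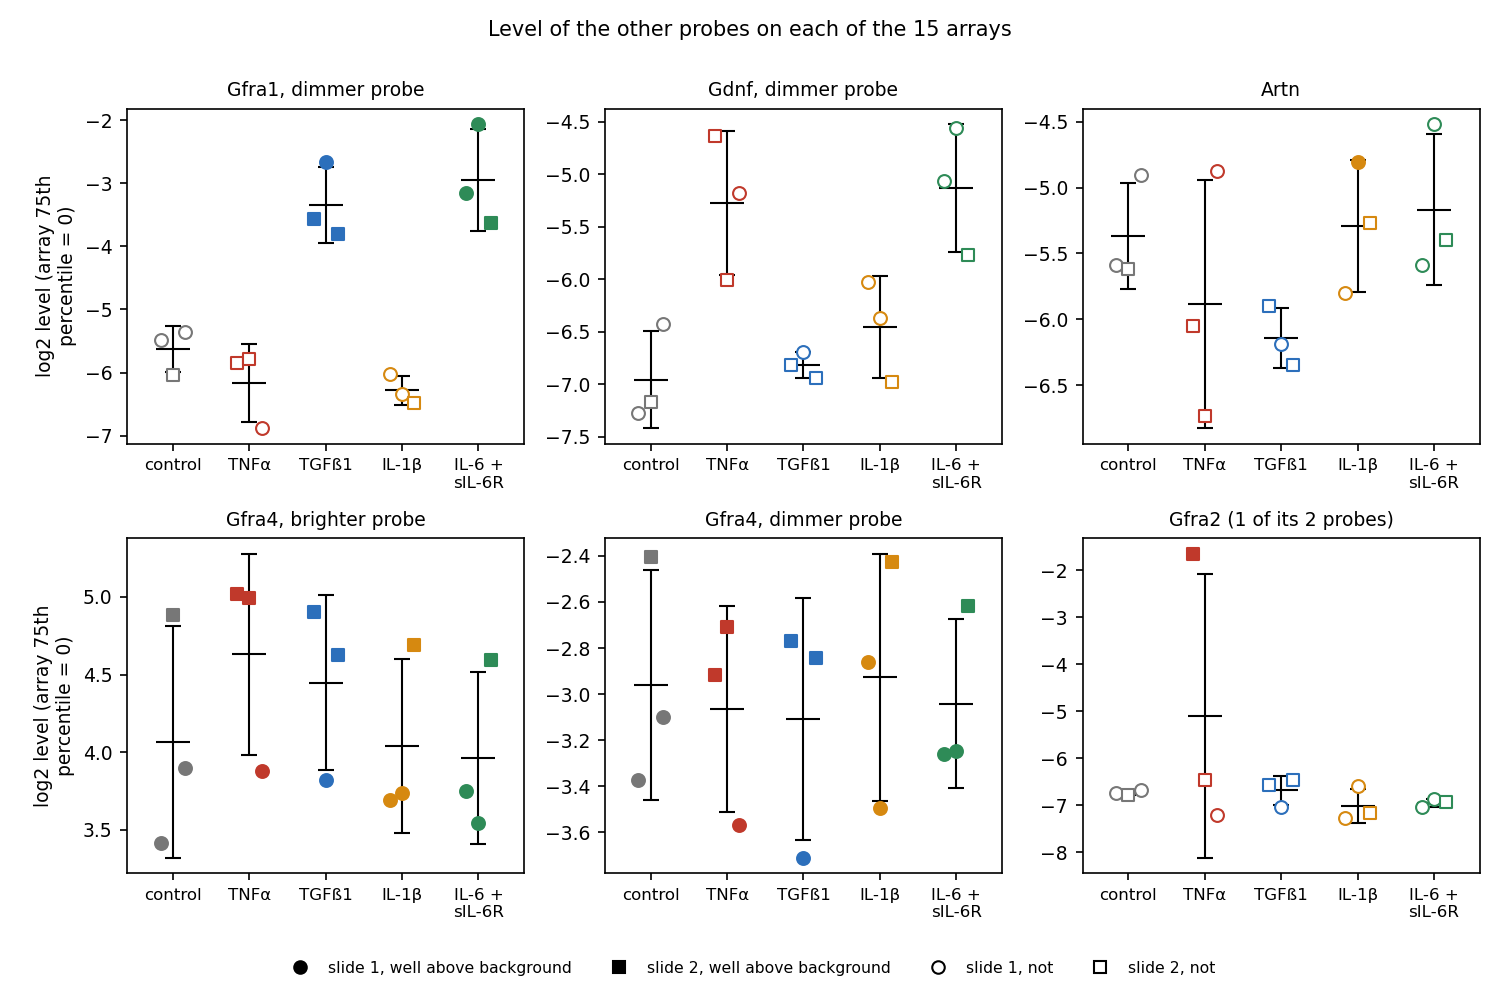
Log2 level (vertical axis, array 75th percentile = 0) of the dimmer *Gfra1* and *Gdnf* probes, *Artn*, both *Gfra4* probes and 1 *Gfra2* probe on each of the 15 arrays by group (horizontal axis). Circles are slide 1, squares slide 2, filled symbols are well above background, and bars are the mean ± SD (n = 3). The levels of the brighter *Gfra4* probe split by slide (slide 2 higher). Those of the dimmer one are also higher on slide 2 within every group. Across groups its slides overlap only in that IL-1β 5 (slide 1, -2.86) lies above TNFα 4 (slide 2, -2.92). *Gfra2* is filled on the array TNFα 4 alone.

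Of the other ligands and GFRα co-receptors, *Nrtn* and *Gdf15* were tested. *Nrtn*, which encodes neurturin, was above background on all 15 arrays and differed from control by -0.13 to 0.12 on the log2 scale, with no call. *Pspn* (persephin) and *Gfral* (the co-receptor of GDF15) were above background on no array, *Gfra3* (the artemin co-receptor) was on 1, and *Gdf15* was on all 15 with differences of -0.40 to 0.33 and no call.

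Further along the pathway, 58 genes were listed: the ligands and receptors above, adaptors and effectors of Ret, negative regulators, genes induced downstream of Ret in the ureteric bud, and transcription factors that act on *Ret*. Of these, 38 were tested with 1 probe each. With TGFß1, 9 rose and 4 fell, which is 23.7% and 10.5% of those tested, where 8.89% and 12.2% of all 13523 named genes did. The median difference was 0.13 over the list and 0.06 over all named genes. With TNFα, 4 fell (10.5%, against 7.99% of all genes) and none rose (against 4.56%), with medians of -0.15 and 0.0062, while 2 listed genes were higher and 10 lower at an unadjusted p under 0.05 (limma). With IL-1β and IL-6 none of the 38 was called by limma, where 0.318% and 0.0887% of all genes were called higher and none lower. At an unadjusted p under 0.05, 2 listed genes were lower with IL-1β, and 1 was higher and 3 lower with IL-6. With the slide in the model the calls were 10 higher and 4 lower with TGFß1, where *Crk* was added, and 5 lower with TNFα, where *Cblb* was added. Of all probes, that fit called 9.84% higher and 10.4% lower with TGFß1, and 5.77% higher and 6.20% lower with TNFα. These are shares of probes, whereas the list has 1 probe per gene, so the 2 are not directly comparable. Without the slide, 5.96% of all probes but 7.99% of all named genes were called lower with TNFα. The comparisons share the control arrays.

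Of 3 co-receptor-like genes tested, all changed with TGFß1, where 8.89% of all named genes were called higher and 12.2% lower. *Ncam1*, a cell adhesion molecule that can serve as a GDNF receptor together with GFRα1, rose by 1.53 on the log2 scale (SE 0.20, limma adjusted p = 0.000236). *Sdc3*, a heparan sulfate proteoglycan that binds GDNF, rose by 1.82 (SE 0.28, limma adjusted p = 0.000628). *Gas1*, a membrane protein related to the GFRα family, fell by 2.44 with TGFß1 (SE 0.24, limma adjusted p = 2.58e-05) and by 1.02 with TNFα (adjusted p = 0.0143).

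Among 8 negative regulators tested, 3 rose and 1 fell with TGFß1, where 8.89% of all named genes were called higher and 12.2% lower. *Rap1gap*, which turns off the small GTPase Rap1, rose by 2.25 (SE 0.45, 4.77-fold), and *Cblb*, a ubiquitin ligase of receptor tyrosine kinases, by 1.32 (SE 0.28). *Spry1*, a feedback inhibitor of receptor tyrosine kinase signalling, fell by 1.71 with TNFα (SE 0.44, limma adjusted p = 0.0226) and differed by -1.06 with TGFß1 (adjusted p = 0.0983), which did not pass. With slide and run of label numbers in the model, *Spry1* was called lower with all 4 treatments, at -0.91 with IL-1β and -0.96 with IL-6. That fit called 7.74% (TNFα), 11.8% (TGFß1), 0.249% (IL-1β) and 0.235% (IL-6) of all probes lower. The 4 comparisons share the control arrays, and without those terms *Spry1* was called with TNFα alone.

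Of 16 adaptors and effectors tested, 1 rose with TGFß1 and none was called with TNFα. Of 5 tested genes of the list induced downstream of Ret in the ureteric bud, 3 rose with TGFß1 and 1 fell with TNFα. The other 2 differed from control by -0.32 and -0.23 with TGFß1, with no call. Of all named genes, 8.89% were called higher and 12.2% lower with TGFß1, and 7.99% lower with TNFα. A link of these genes to the level of *Ret* was not tested, and the lists are short. *Rara*, a retinoic acid receptor listed among the factors acting on *Ret*, fell by 1.58 with TNFα (SE 0.16, limma adjusted p = 4.35e-05) and by 0.85 with TGFß1 (adjusted p = 0.00205). Of 4 tested genes of that list, 2 fell with TGFß1, *Rara* and *Gata3*, the latter by 1.06 (SE 0.24, limma adjusted p = 0.0074). Of that list of 8 factors, *Sox10* and *Nkx2-1*, among others, did not have all arrays of any group above background.

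**Figure D4:**
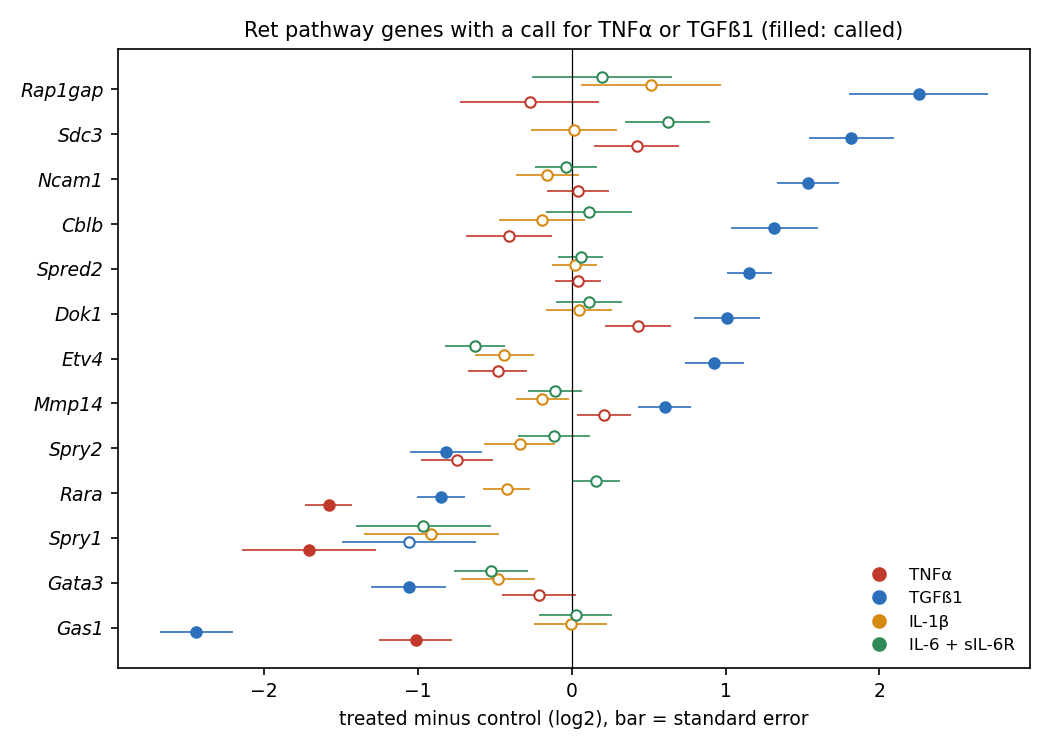
Difference from control on the log2 scale (horizontal axis, bar = standard error of the limma fit) of 13 pathway genes called with TNFα or TGFß1 (vertical axis, ordered by the TGFß1 difference), in the 4 treatments. Filled symbols were called: 8 genes to the right and 4 to the left of 0 with TGFß1, 3 to the left with TNFα, and none with IL-1β or IL-6.

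The genes whose levels most resembled those of a member over the 15 arrays were searched among 13486 named genes, and correlations are given as descriptions. The points share their treatment groups, and for *Gfra4* also the slides. *Ret* was below background on every array without TGFß1, so its r mostly sets TGFß1 against the rest. The differences printed for the genes found follow from this way of picking them. For *Ret* they were *Atp6v1g1* (Pearson's r = 0.991), *Creb3l2* (0.987) and *Npcd* (0.985), which stood 1.32, 1.24 and 1.54 higher with TGFß1 than in controls on the log2 scale and between -0.18 and 0.05 from the controls in the other groups. For *Gfra1* they were *Tnfrsf21* (0.913), *Fbln2* (0.888) and *Tnip2* (0.884). For *Gdnf* they were *Myd88* (0.908), *Rarres2* (0.906) and *Nsd2* (0.887), of which *Rarres2* stood 1.83 higher with TNFα, 1.37 higher with IL-6, 1.19 higher with IL-1β and at -1.55 from the controls with TGFß1. For *Gfra4* they were *Ccer2* (0.984), *Gm16796* (0.981) and *Acsf2* (0.978).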

How the data were processed

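RNA of MEFs was labelled with Cyanine 3 and hybridized by the authors to one-color Agilent 60-mer arrays, and spots were read with Agilent Feature Extraction 10.7.3.1 (submitters' processing notes). The deposited intensity of each spot is the processed signal, which the software had corrected for background; no normalization between arrays is in it. The series table holds the same deposited signals (largest difference 0). Of 62976 spots per array, 59305 were not controls. Spots marked as non-uniform or outliers were left out (none of a member), log2 intensities were averaged per probe, and each array was scaled by subtracting its 75th percentile. Probes well above background (on at least 0.5 of their spots) on every array of at least 1 group were tested, 29334 of 56605. Probes were named through RefSeq transcripts (GRCm38.p6), which matched 33767. Where a gene has several probes, the one with the highest mean stands for it.

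One linear model per probe over all 15 arrays was fitted with limma 3.58.1 in R 4.3.3, with moderated two-sided tests, Benjamini-Hochberg adjustment over all probes tested, and a call at an adjusted p under 0.05 and a fold-change of at least 1.5. The fit was tested on simulated data with independent noise and no effect of slide or run, so that test does not cover such effects. A bound takes, for a group with no array above background, for each of its arrays the dimmest level above background or the probe's own level, whichever is higher, and averages these. The slide was read from the file headers, and runs are label numbers 1 to 5, 6 to 10 and 11 to 15. The members and lists were chosen with earlier results of these data known, so no p is adjusted over the members alone. Members, the pathway list (up to 6 largest differences per comparison), the treatment checks and the 3 genes most alike each member are named, except a few genes that are not reported here; counts and sums over lists include them. Normexp (offset 50) used the median signal and local background. The number of arrays limits the precision.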

Additional observations from a re-analysis of the deposited data

How the results depend on the processing

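The rise of *Gdnf* with TNFα was called under all 16 alternatives that gave a test, and the 3 called member values kept their direction in every alternative run. No label number is shared by 2 groups, so pairing was tried only as runs of 5 label numbers, each with 1 array of every group, as a block together with the slide. Fold-changes of dim probes depend on the background correction: after normexp, *Ret* with TGFß1 was 2.64 and *Gfra1* (brighter probe) with TGFß1 was 1.34, because the offset narrows differences near background. On slide 2 alone, which holds 1 control array, *Ret* with TGFß1 was 6.83, *Gdnf* with TNFα 1.99 and *Gdnf* with IL-1β 1.10. *Gfra1* (brighter probe) with IL-6, at 2.55, passed the threshold with the slide (adjusted p = 0.0248), with slide and run (0.00855) and with variances that follow intensity (0.0492), and leaving out 1 array gave 2.16 to 2.91, with a call without IL-6 13 (0.0467). *Gdnf* with IL-6, at 1.68, was not called with only the 6 arrays of both groups (adjusted p = 0.381), and leaving out 1 array gave 1.40 to 1.91. The pathway list, with 4 calls for TNFα, had 2 from the 6 arrays and 2 to 3 with 1 array left out (2 without control 6, control 11, TNFα 4 or TNFα 14). It had 1 call with IL-1β and 3 with IL-6 with slide and run in the model, which were *Spry1* in both and *Sdc3* and *Etv4* with IL-6. Calls were also more frequent over all probes in that fit. It called 0.852% higher and 0.249% lower with IL-1β, and 0.552% higher and 0.235% lower with IL-6. The cause was not tested. No *Gfra4* value was called, and several changed sign: the dimmer probe with IL-1β was -0.028 after quantile normalization, and leaving out 1 array gave -0.35 to 0.38 (IL-1β) and -0.43 to 0.30 (IL-6) for the brighter probe, and -0.31 to 0.17 (TNFα), -0.22 to 0.32 (IL-1β) and -0.29 to 0.20 (IL-6) for the dimmer one.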

Other observations

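Among the member probes that were not tested, *Gfra2* gave 1 isolated value, a signal of 115 on the array TNFα 4, from 1 of its 2 probes. The signals of that probe on the other TNFα arrays, 9 and 14, were 4.56 and 2.57.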
